A study of Rattus norvegicus with 6 samples.

Results

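The 7 genes described here make, package, degrade and sense γ-aminobutyric acid (GABA): the glutamate decarboxylase genes Gad1 and Gad2, the vesicular GABA transporter gene Slc32a1, the catabolic enzyme genes Abat and Aldh5a1, and the GABA-B receptor subunit genes Gabbr1 and Gabbr2. They were chosen by name from the table of normalized counts, which lists 32900 features, and all 7 have a row in it. The data are total RNA sequencing of 6 clonal INS-1 lines, a rat insulinoma β-cell model, with 3 control lines (5-9, 2 and 16) and 3 PWS lines (3, 19-1 and 19-4). All lines descend from an INS-1 subline that carries a human INS-neoR and a mouse Ins2-C-mCherry transgene, and all were grown without treatment in 7.5 mM glucose. The control lines lack the Prader-Willi syndrome (PWS) imprinted domain on the silent maternal allele. The PWS lines carry that same maternal deletion and a second deletion of the domain on the active paternal allele. Each line gave 1 library of rRNA-depleted RNA. Control line 5-9 is the parent of the other 5 lines, which were isolated after it was transfected again. Line 3 carries a larger paternal deletion than line 19, from another proximal breakpoint. Both 19-1 and 19-4 were subcloned from line 19, which leaves 2 clones edited on the paternal allele among the 3 PWS lines. With 1 library per line, every p-value below measures only the spread between these lines.

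GABA is made from glutamate by 2 decarboxylases, GAD67 from Gad1 and GAD65 from Gad2, which differ in where they sit in the cell and in how they hold their pyridoxal phosphate cofactor. It is broken down in mitochondria by GABA transaminase (Abat) and succinic semialdehyde dehydrogenase (Aldh5a1), whose product enters the citric acid cycle. Pancreatic β-cells are among the richest sources of GABA outside the brain, GAD65 is a well known autoantigen of autoimmune diabetes, and islet cells respond to GABA through chloride channels (GABA-A receptors) and through the GABA-B receptor, which needs both of its subunits and signals through inhibitory G proteins.

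Of the 7 genes, 6 reached the minimum for testing, an average over all lines of 5 normalized counts or more, and Slc32a1 did not. A normalized count is a read count divided by the size factor of its library. In limma, 0 of these 6 had an adjusted p under 0.05, where 0.257% of the 15579 genes tested did. At an unadjusted limma p under 0.05 there were 3 (Gad2 lower, Aldh5a1 and Gabbr2 higher in the PWS lines), against 11.3% of all tested genes, and the same 3 genes had control and PWS lines that did not overlap, as 17.4% of tested genes had (8.43% with the PWS lines higher and 9.01% with them lower). edgeR on the recovered reads called 0 of the 6 and 32 genes in all (0.205%). DESeq2 called 0 of the 6 at 0.05, where 1.46% of tested genes passed, and 2 of the 6, Gad2 and Gabbr2, at 0.1, where 2.37% did. The 6 log2 fold changes had a median of 0.23, beside -0.0028 over all tested genes.

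The counts per line summed to 26016478 to 36084261 in the table used, where a read can count for more than 1 gene, and to 17530149 to 23022637 in the table that leaves out reads with more than 1 place or gene. Mkrn3, Snurf and Snrpn, paternally expressed genes of the deleted domain, had 77.9 to 3992 normalized counts in the control lines and 0 to 3.64 in the PWS lines. Snurf and Snrpn are bicistronic and largely share their reads. Only 1.62% and 0.888% of these reads remain when those with more than 1 place or gene are left out. All 12 β-cell markers were detected in the libraries, with summed normalized counts of 523596 to 593987 in the control lines and 282847 to 492896 in the PWS lines. The 8 listed GABAergic neuron markers summed to 39.0 to 56.9 in the control lines and 32.7 to 38.3 in the PWS lines. This sum included Slc32a1 and rested mostly on Lhx6 and Dlx5, and Dlx5 ranged from 8.18 to 32.1 over all lines. The lines are clonal, so these sums do not measure a mixture of tissue cell types. In bulk RNA, fewer cells with a transcript and less of it per cell cannot be told apart.

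The promoter-proximal sequences of both decarboxylase genes are shown because their mean RNA levels lay in opposite directions between the groups of lines, although neither passed the test. The 250 bases before the annotated start were read from RefSeq on build GRCr8, at chr3:75777202-75777451 on the plus strand for Gad1 and at chr17:89671468-89671717 on the plus strand for Gad2. They are written 5′ to 3′, and capitals mark the matches, on either strand, to 5 motifs. The first was TATAAA, known from core promoters. The second was CCGCCC, the core of binding sites for Sp proteins, and the third was CCAAT, recognised by the factor NF-Y. The fourth was CACGTG, a form of the E-box, and the fifth was TGACGTCA, the full cAMP response element. No matches overlap each other here.
Gad1: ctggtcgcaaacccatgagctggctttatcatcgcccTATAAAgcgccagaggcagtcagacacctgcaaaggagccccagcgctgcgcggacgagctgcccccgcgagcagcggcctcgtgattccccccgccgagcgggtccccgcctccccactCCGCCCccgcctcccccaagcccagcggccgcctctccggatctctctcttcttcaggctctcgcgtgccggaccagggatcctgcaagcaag
Gad2: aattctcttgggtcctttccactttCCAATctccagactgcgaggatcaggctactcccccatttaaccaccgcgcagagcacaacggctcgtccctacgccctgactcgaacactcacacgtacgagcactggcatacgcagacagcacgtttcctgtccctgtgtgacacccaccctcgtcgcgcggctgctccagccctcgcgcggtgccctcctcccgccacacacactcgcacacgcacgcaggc

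Gad1 held 1 TATAAA and 1 CCGCCC match in this window, and Gad2 held 1 CCAAT match. The TATAAA match lay toward the 5′ end of the window, far from the annotated start, and was not shown to be a core promoter element. Over the 33469 rat windows of the same length, 12.9% held TATAAA, 30.5% CCGCCC, 34.0% CCAAT, 5.59% CACGTG and 1.59% TGACGTCA. Both windows were rich in G and C, at 68.4% for Gad1 and 62.0% for Gad2, against a median of 51.2% over all windows. They held 23 and 22 CpG dinucleotides, where the median window held 5. Of the 7 genes, 6 had a promoter entry. Gabbr2 had the most CpG dinucleotides of the 6 with 39, Slc32a1 had 34, Gabbr1 had 26 and Aldh5a1 had 19. A CCGCCC match was also found in the windows of Slc32a1 and Gabbr2 (1 each) and Gabbr1 (4), and a CCAAT match in that of Slc32a1. These matches are letters in a sequence, and no measurement of protein binding was made.

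Gad2, which encodes GAD65, was the tested gene of the 7 that differed most between the groups of lines. It had 403 normalized counts in control line 5-9, 1343 in line 2 and 430.4 in line 16, against 251 in PWS line 3, 179 in line 19-1 and 127 in line 19-4. Every PWS line was below every control line, and control line 2 stood far above the others, at 3.34 times the lowest control line. The group means were 725 ± 535 (SD, n = 3) in the control lines and 186 ± 62.2 (SD, n = 3) in the PWS lines, a ratio of 0.256. The limma log2 fold change of Gad2 was -1.78 (SE 0.45, 95% interval -2.80 to -0.75), with an adjusted p of 0.277. Without control line 2 it was -1.21, with a limma adjusted p of 0.326.

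The lines of each group varied widely in Gad2. Its within-group SD on the log2 scale was 0.77, larger than that of 97.0% of tested genes, whose median was 0.15. Between 140 and 1463 reads per line were counted for Gad2, for a counting error of 2.61% to 8.45% of the value (1 SD, counting error only). Among the neighbours in the order of lines, 16 and 5-9 differed by 0.97 of their counting error, and the next smallest gap, between 19-1 and 19-4, was 2.87 counting errors. With lines 19-1 and 19-4 averaged into 1 sample, the log2 fold change of Gad2 was -1.64, with a limma adjusted p of 0.525. DESeq2 on the recovered reads gave -1.96 with an adjusted p of 0.0878.

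Gad1, which encodes GAD67, ran the other way on average. It had 251 normalized counts in control line 5-9, 252 in line 2 and 350.2 in line 16, against 258 in PWS line 3, 367 in line 19-1 and 654 in line 19-4. The groups overlapped, since PWS line 3 was level with the lower control lines, and line 19-4 stood above all the others. The means were 284 ± 57.0 (SD, n = 3) and 426 ± 204 (SD, n = 3). The limma log2 fold change was 0.49 (SE 0.31, 95% interval -0.21 to 1.19), with an adjusted p of 0.580. It was 0.13 without line 19-4 and 0.80 without PWS line 3, with limma adjusted p-values of 0.892 and 0.333. Line 19-4 was also the library with the most RNA of the 5 listed α-cell markers, which summed to 112 there and to 1.84 to 23.7 in the control lines and 18.4 to 20.3 in the other PWS lines. Most of this was the glucagon gene Gcg, at 100 normalized counts in line 19-4, while Irx1 and Irx2 were at 0 in every line. Their part in the Gad1 level was not tested.

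**Figure D1:**
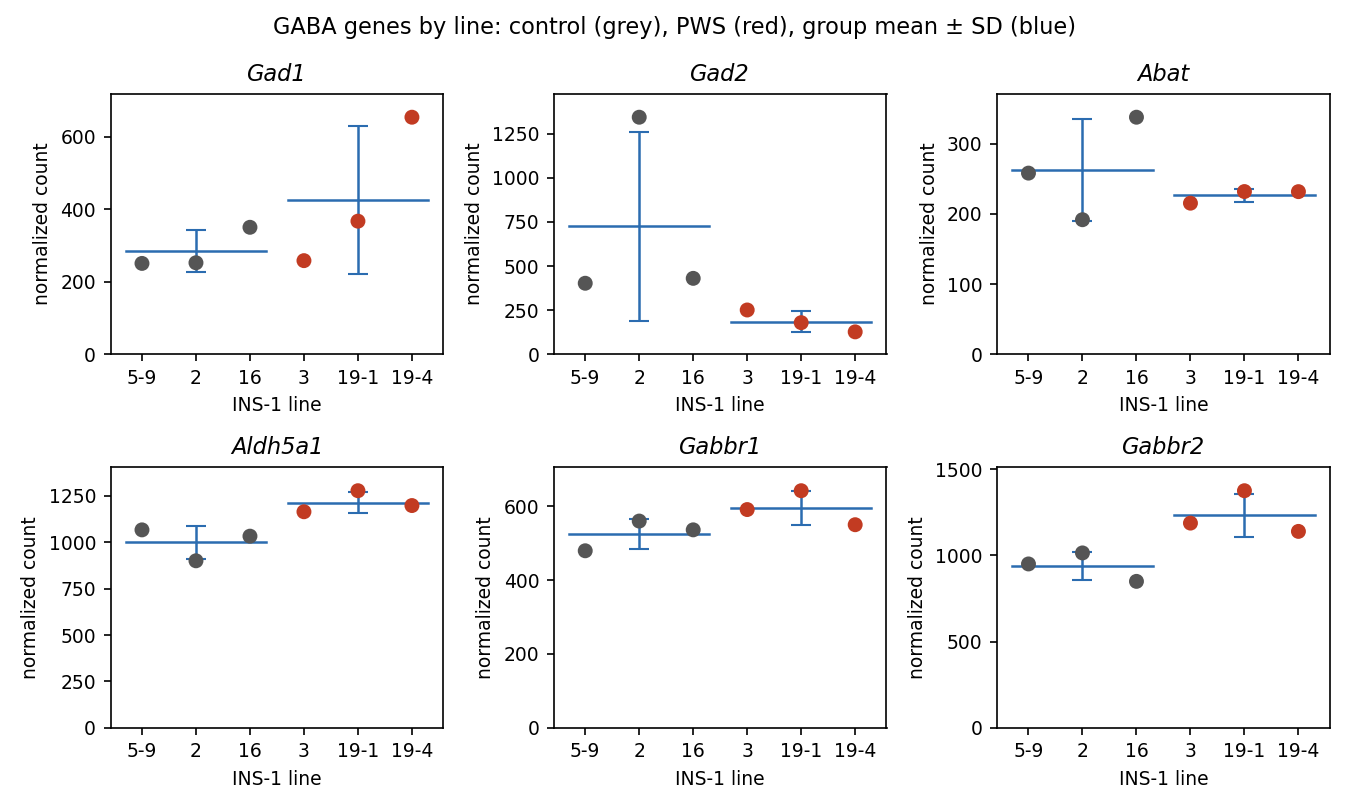
Normalized counts (vertical axes, linear and starting at 0) of the 6 tested GABA genes in each INS-1 line (horizontal axes), with control lines in grey, PWS lines in red and group means ± SD (n = 3) in blue. Control line 2 stands out for Gad2 at 1343 and PWS line 19-4 for Gad1 at 654, while the groups are apart for Gad2, Aldh5a1 and Gabbr2.

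The proportion of the 2 decarboxylase RNAs was compared by line. The ratio of Gad2 to Gad1 normalized counts was 1.61 in control line 5-9, 5.32 in line 2 and 1.23 in line 16, and 0.972 in PWS line 3, 0.489 in line 19-1 and 0.195 in line 19-4. All control lines were above 1 and all PWS lines below it, but since transcript length was not corrected for, the value 1 itself has no meaning and only the lines can be compared. The mean log2 ratio was 1.13 ± 1.12 (SD, n = 3) in the control lines and -1.14 ± 1.16 (SD, n = 3) in the PWS lines, a difference of -2.27 or 4.82-fold. An exact two-sided permutation test gave p = 0.1 (0.1 also when adjusted over the 2 ratios tested), the smallest p that 3 lines against 3 can give. The difference was -1.63 without control line 2 and -1.66 without PWS line 19-4. With the subclones 19-1 and 19-4 averaged into 1 sample it was -2.01, with an exact permutation p of 0.2, so the difference did not pass a threshold of 0.05 in either form, which these numbers of lines cannot reach. Gad1 is on rat chromosome 3 and Gad2 on chromosome 17.

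**Figure D2:**
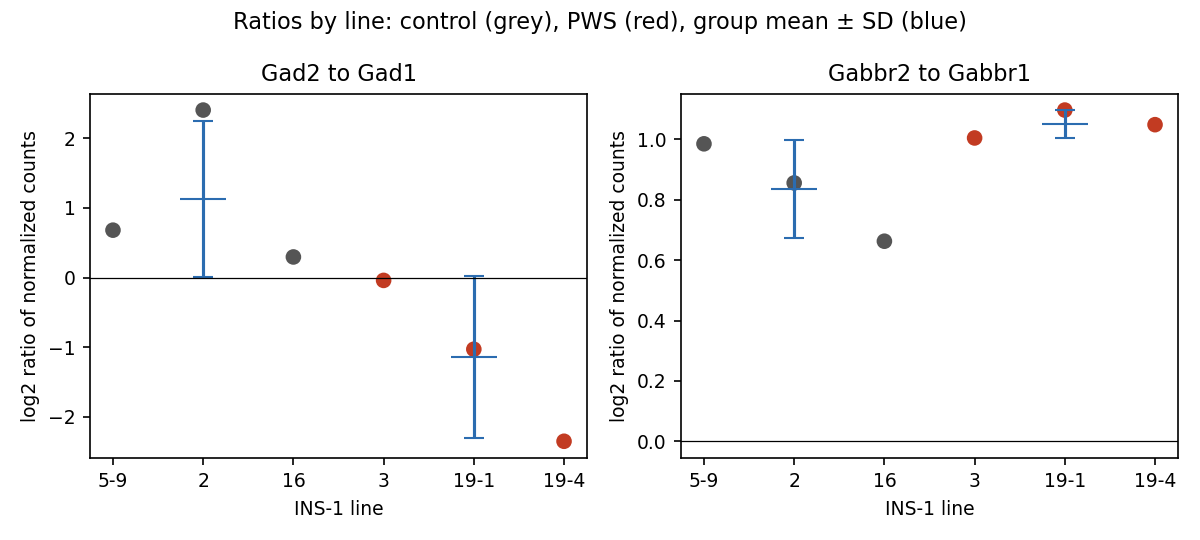
Log2 ratio of the normalized counts of Gad2 to Gad1 (left) and of Gabbr2 to Gabbr1 (right) in each INS-1 line, with control lines in grey, PWS lines in red and group means ± SD (n = 3) in blue. The control lines lie above the PWS lines for Gad2 to Gad1 and below them for Gabbr2 to Gabbr1, where the span of values is much smaller (mean difference 0.22 against -2.27).

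Transport of GABA into vesicles had almost no transcript in these cells. Slc32a1, the vesicular GABA transporter of inhibitory neurons, had 0 reads in 5 of the 6 lines and 1 in PWS line 19-1, which is absent when ambiguous and multiply aligned reads are left out. In a library, 0 counted reads are compatible with up to 3, that is 2.73 to 3.59 normalized counts depending on the library, so a difference between the groups was not detectable at this depth. Among the vesicular carriers of other transmitters, Slc17a9 (the vesicular nucleotide transporter) had a log2 fold change of -0.22 (-0.058 without PWS line 19-4), with a limma adjusted p of 0.641, and the vesicular acetylcholine transporter gene Slc18a3 had no read.

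The enzymes that break GABA down were both well detected. Abat had 258 normalized counts in control line 5-9, 192 in line 2 and 338 in line 16, and 215 in PWS line 3, 232 in line 19-1 and 232 in line 19-4. The PWS lines lay inside the range of the control lines, which were themselves 1.76 times apart. The means were 263 ± 73.1 (SD, n = 3) and 226 ± 9.53 (SD, n = 3), and the limma log2 fold change was -0.18 (SE 0.19, 95% interval -0.62 to 0.27), with an adjusted p of 0.775. Its sign turned without control line 16, at 0.024.

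Aldh5a1, which encodes the enzyme after Abat in the same route, was higher in every PWS line. It had 1067 normalized counts in control line 5-9, 900.5 in line 2 and 1033 in line 16, and 1165 in PWS line 3, 1278 in line 19-1 and 1198 in line 19-4. The groups did not overlap, although the closest pair of lines from different groups, PWS line 3 and control line 5-9, was only 2.08 counting errors apart. The means were 1000.3 ± 88.1 (SD, n = 3) and 1214 ± 58.3 (SD, n = 3), a ratio of 1.21. The limma log2 fold change of Aldh5a1 was 0.28 (SE 0.087, 95% interval 0.081 to 0.48), with an adjusted p of 0.325, and DESeq2 gave an adjusted p of 0.212. It stayed between 0.21 and 0.33 when each line was left out in turn, and the within-group SD of 0.10 on the log2 scale was below the median of tested genes.

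The GABA-B receptor subunits both had higher means in the PWS lines. Gabbr1, the subunit that binds GABA, had 479 normalized counts in control line 5-9, 560 in line 2 and 536 in line 16, and 591 in PWS line 3, 642 in line 19-1 and 550.1 in line 19-4. PWS line 19-4 fell between control lines 16 and 2, so the groups overlapped. The means were 525 ± 41.3 (SD, n = 3) and 594 ± 46.1 (SD, n = 3), with a limma log2 fold change of 0.18 (SE 0.10, 95% interval -0.050 to 0.41) and an adjusted p of 0.542. With each line left out in turn the fold change of Gabbr1 ran from 0.11, without control line 5-9, to 0.23.

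Gabbr2, the subunit that couples to the G protein, had 950.4 normalized counts in control line 5-9, 1014 in line 2 and 849 in line 16, and 1187 in PWS line 3, 1375 in line 19-1 and 1139 in line 19-4. Every PWS line was above every control line, with line 19-1 the highest. The means were 938 ± 83.1 (SD, n = 3) and 1234 ± 125 (SD, n = 3), a ratio of 1.32. The limma log2 fold change of Gabbr2 was 0.39 (SE 0.10, 95% interval 0.16 to 0.63), with an adjusted p of 0.277 in limma, 0.277 in edgeR and 0.0587 in DESeq2. It stayed between 0.31 and 0.45 when each line was left out in turn.

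The ratio of Gabbr2 to Gabbr1 varied little. It was 1.98 in control line 5-9, 1.81 in line 2 and 1.58 in line 16, and 2.01 in PWS line 3, 2.14 in line 19-1 and 2.07 in line 19-4. The PWS lines were above the control lines by a narrow margin at line 5-9. The difference in mean log2 ratio was 0.22, or 1.16-fold, with p = 0.1 in the exact two-sided permutation test, again the smallest possible, and 0.1 when adjusted over the 2 ratios. It ranged from 0.13 to 0.29 when each line was left out in turn. In the RSEM table the groups gave an exact p of 0.4 for this ratio.

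**Figure D3:**
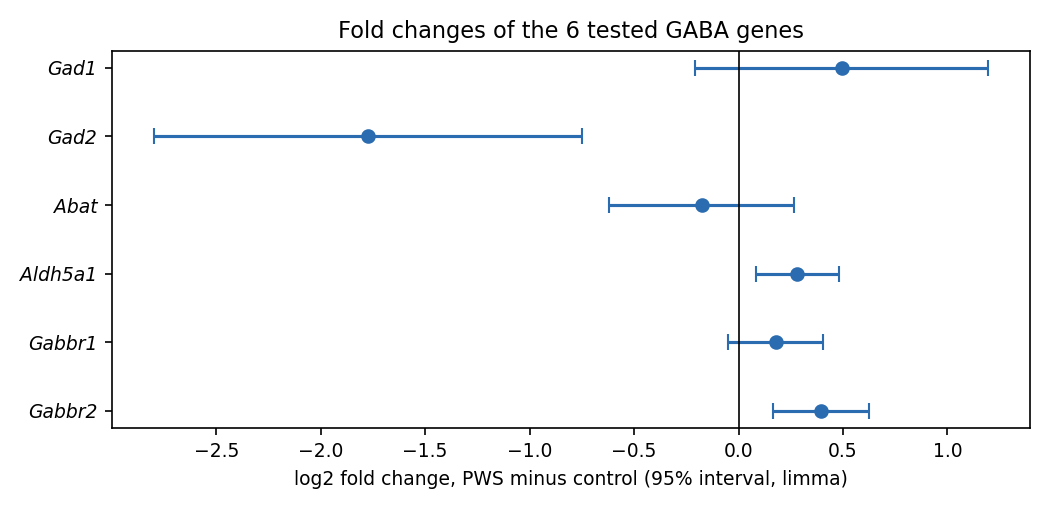
Limma log2 fold changes (PWS minus control) of the 6 tested GABA genes with their 95% intervals, for 3 lines per group. The intervals of Gad2, Aldh5a1 and Gabbr2 leave out 0 before adjustment for the 15579 genes tested, and that of Gad2, from -2.80 to -0.75, is the most distant from it.

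The receptors on the other arm of GABA signalling are the GABA-A channels, assembled from 5 subunits around a chloride pore. Of 19 subunit genes in the table, 16 had a read in some line and 10 were tested. None passed an unadjusted p of 0.05 in limma, 8 of the 10 had a higher mean log2 level in the PWS lines (7678 of the 15579 genes tested did), and the median log2 fold change was 0.23. Gabrg1 (the γ1 subunit) had the most positive fold change, 1.16, with means of 3.46 ± 2.57 and 8.41 ± 3.43 normalized counts (SD, n = 3), overlapping groups and a limma adjusted p of 0.449. It rested on 2 to 10 reads per line, and its log2 fold change was 0.67 with a pseudocount of 5. Gabrq (the θ subunit) had the most negative, -0.17, with means of 732 ± 27.8 and 654 ± 58.2 (SD, n = 3).

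Another pair of subunits was picked after their values were seen. Gabrd, the δ subunit of extrasynaptic receptors, had 178 normalized counts in control line 5-9, 18.4 in line 2 and 129 in line 16, and 156, 134 and 155 in PWS lines 3, 19-1 and 19-4. Control line 2, the line with the most Gad2, was the lowest of all lines for Gabrd. Its log2 fold change was 0.96 over all lines and -0.037 without control line 2, with limma adjusted p-values of 0.653 and 0.968. Gabra5, the α5 subunit, had 6, 4 and 6 reads in control lines 5-9, 2 and 16 and 1 read in each PWS line. It was under the filter, and in the limma fit over all genes with any read its adjusted p was 0.242. In the RefSeq annotation Gabra5 is on chromosome 1, as is Snrpn of the deleted domain.

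The proteins that anchor and move GABA-A receptors gave 1 gene higher and 1 lower at an unadjusted limma p under 0.05, of 10 tested. The lower one was Gabarap, which encodes a receptor-associated protein of the autophagy family, with 3779 ± 66.4 and 3320 ± 239 (SD, n = 3) and a limma adjusted p of 0.392. The groups did not overlap for Gabarap. Ubqln1, an ubiquitin-like protein with the highest mean of this list, had a log2 fold change of -0.098. The median of the list was 0.011.

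Reuptake of GABA across the plasma membrane had almost no transcript. Slc6a11 and Slc6a12, which encode GABA transporters, had 0 reads in all 6 lines, and Slc6a13 had 1 read, in PWS line 3. The taurine transporter gene Slc6a6 had the highest mean of this list of 10, with 3904 ± 421 and 3812 ± 77.4 normalized counts (SD, n = 3), and 7 of the 10 genes had a read. Of the LRRC8 genes, which encode the volume-regulated anion channel, Lrrc8c had the most positive log2 fold change (0.27) and Lrrc8b the most negative (-0.034). None of the 5 tested genes of this list passed an unadjusted p of 0.05 in limma, and their median was -0.014.

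The supply of glutamate, the substrate of both decarboxylases, was described by 14 genes, all with a read and 13 tested. At an unadjusted limma p under 0.05, 1 was higher and 0 were lower, and the median log2 fold change was 0.12. Slc38a2, a neutral amino acid transporter, had the highest mean, with 10378 ± 427 and 10794 ± 854 normalized counts (SD, n = 3). Slc1a5, a glutamine transporter, had the most positive log2 fold change, 0.49, and Slc38a1, another glutamine transporter, the most negative, -0.43, with limma adjusted p-values of 0.538 and 0.672. For Slc38a1 the value was -0.045 without PWS line 3 and -0.72 without line 19-4. The gene with an unadjusted p under 0.05 was not Slc38a2, Slc1a5 or Slc38a1.

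Cofactor supply and the side routes of GABA metabolism gave 1 higher and 0 lower of 12 tested genes at an unadjusted limma p under 0.05, with a median of 0.012. Suclg1, a subunit of succinyl-CoA ligase, had the highest mean, and its log2 fold change was 0.052. The monoamine oxidase genes Maoa and Maob, whose products act in the route from putrescine to GABA, marked the ends of this list with 0.34 and -0.24, and limma adjusted p-values of 0.569 and 0.544. The gene with an unadjusted p under 0.05 was not Suclg1, Maoa or Maob.

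The partners and effectors of the GABA-B receptor held the 1 gene of the 63 tested list genes that DESeq2 called at 0.05, where 1.46% of all tested genes were called, so the share in the lists was near the background. Gnao1, which encodes the α subunit of the inhibitory G protein Go, had 410.2 normalized counts in control line 5-9, 451 in line 2 and 475 in line 16, and 545 in PWS line 3, 1099 in line 19-1 and 920.1 in line 19-4. Every PWS line was above every control line, and the related lines 19-1 and 19-4 were far above line 3. The limma log2 fold change was 0.88 (SE 0.23, 95% interval 0.36 to 1.40), with an adjusted p of 0.277 in limma, 0.276 in edgeR and 0.00342 in DESeq2. Without PWS line 3, leaving only the subclones of line 19, it was 1.18 with a limma adjusted p of 0.0114, and with these subclones averaged into 1 sample it was 0.74 with an adjusted p of 0.540.

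The other genes of this list had smaller values. App, whose product has an extracellular part that binds Gabbr1, had the highest mean and the most negative log2 fold change, -0.38, with a limma adjusted p of 0.585. PWS line 19-4 had 9197 normalized counts of App, where the other lines had 16260 to 19611, and without it the log2 fold change was -0.061. The median of the 8 tested genes was -0.059.

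The list of vesicular transporters and GAD anchoring held Zdhhc17, which encodes a palmitoyl transferase, and Dnajc5, a chaperone of synaptic and secretory vesicles. Zdhhc17 had a log2 fold change of 0.13, with a limma adjusted p of 0.612, and Dnajc5 one of -0.13, with 0.535. None of the 5 tested genes of this list passed an unadjusted p of 0.05, and their median was -0.069. Across the lists together, 85 genes were in the table, 63 were tested, and limma called 0 of them, edgeR 0 and DESeq2 1 (Gnao1). At an unadjusted limma p under 0.05 there were 5 of the 63 (4 higher and 1 lower), against 11.3% of all tested genes.

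**Figure D4:**
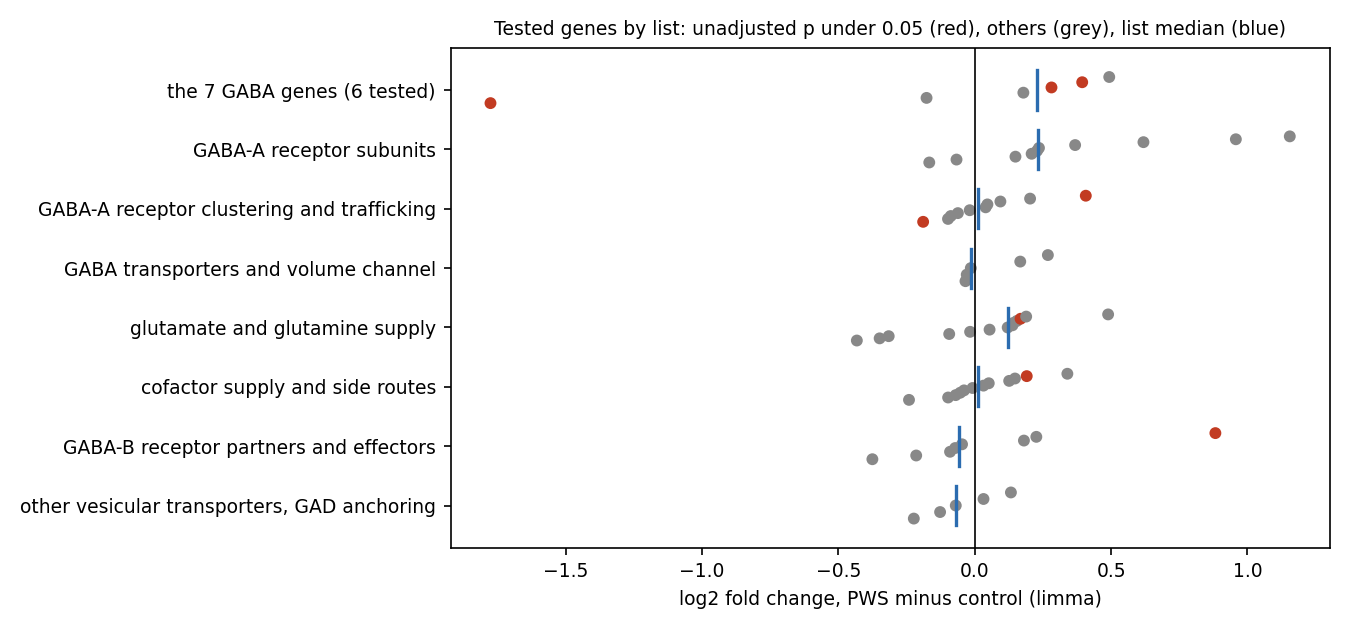
Limma log2 fold changes (PWS minus control, horizontal axis) of the tested genes of each GABA list (rows), with red points for an unadjusted p under 0.05, grey points for the others and a blue bar for the list median. Gad2, at -1.78, is the lowest point, Gnao1 at 0.88 is the highest of the red ones, and the list medians lie between -0.069 and 0.23.

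The likeness of line profiles was described for Gad2 and Aldh5a1, the tested genes with the largest difference and the highest mean. For each, genes were ranked by the root mean square difference of log2(normalized count + 1), centred over the 6 lines. Among 213 candidates the profile nearest to that of Gad2 was Nes, which encodes the intermediate filament protein nestin, with a difference of 0.155 and Pearson's r of 0.991 over 6 lines. In control lines 5-9, 2 and 16 the normalized counts of Nes were 60.8, 155 and 63.7, and in PWS lines 3, 19-1 and 19-4 they were 39.8, 23.9 and 16.4. Control line 2 was highest and line 19-4 lowest, in the order that Gad2 has for these 2 lines. The next genes were Dll1 (a Notch ligand), Lyzl1, Plpp3 and Hsd11b2, with differences of 0.324 to 0.391. A likeness over 6 libraries, of which control line 2 carries much, is a description only.

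**Figure D5:**
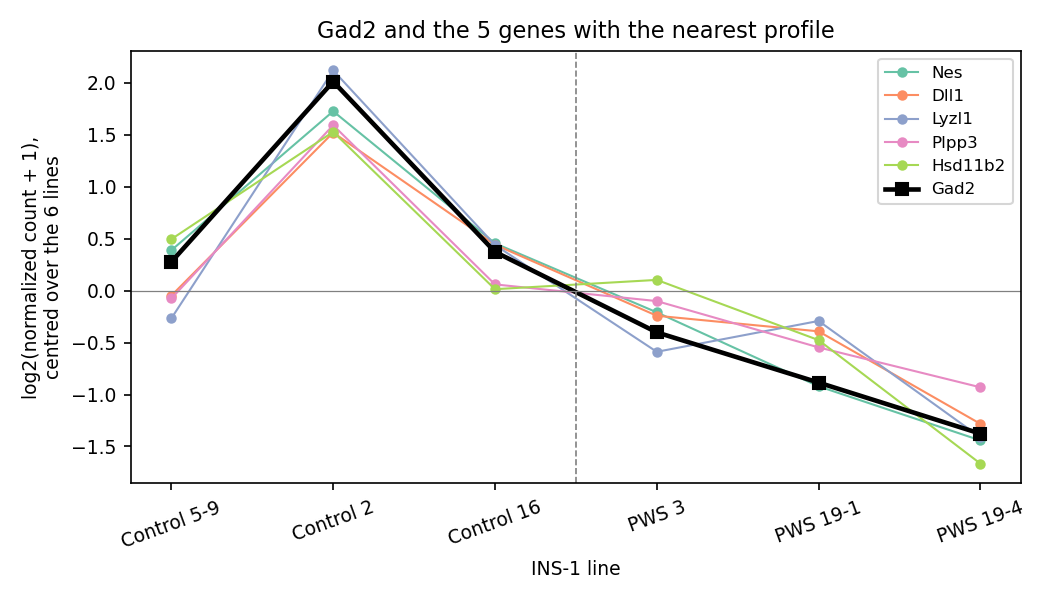
Log2(normalized count + 1), centred over the 6 lines (vertical axis), of Gad2 (black squares) and of the 5 genes with the nearest profile (coloured circles) in each INS-1 line, with control lines left of the dashed line. Control line 2 is the highest point and PWS line 19-4 the lowest for every gene plotted.

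For Aldh5a1 there were 8305 candidates, since its own spread is small. The nearest was Dnajb4, which encodes a chaperone of the DnaJ family, with a difference of 0.0147 and r of 0.996 over 6 lines, and then Enpp4, Traf6, Chd6 and Bod1l1, with differences of 0.0338 to 0.0398. In control lines 5-9, 2 and 16 the normalized counts of Dnajb4 were 694, 586 and 666, and in PWS lines 3, 19-1 and 19-4 they were 765, 812 and 775. The groups do not overlap for this gene, as its choice by likeness to Aldh5a1 favours.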

How the data were processed

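Total RNA from 3 control and 3 PWS INS-1 lines was sequenced as stranded paired-end libraries. The authors checked reads with FastQC 0.11.5, trimmed them with cutadapt, aligned them with STAR 2.7.0e to the Ensembl rat genome with added transgenes and custom features, counted them with HTSeq 0.11.2 or RSEM 1.3.1, and compared groups with DESeq2. The deposited signal is each line's count after division by its size factor. Columns with the authors' own comparison (log2 fold change, its error, raw and adjusted p) were not used.

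The table with nonunique all counting, in which a read that fits several genes or places counts for each of them, was used. In it 100% of the values were whole multiples of the value of 1 read (tolerance 0.001), and reads were recovered on that basis. Genes averaging 5 or more normalized counts were tested by limma 3.58.1 (eBayes with trend, R 4.3.3) on log2(normalized count + 1), where fold changes of low genes are understated, with Benjamini-Hochberg adjustment over 15579 genes and a threshold of 0.05, which called 40 genes. On the recovered reads edgeR 4.0.16 called 32 genes and DESeq2 1.42.0 called 228. Ratios were compared by an exact two-sided permutation test.

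The members and lists were chosen with earlier results of these data known. In each list the gene of highest mean, those with the largest and smallest log2 fold changes and any gene past the threshold were named. Some genes that this rule or the lists include are not reported here, though list counts, sums and medians include them. Likeness was ranked among genes with a symbol and a mean of at least 50 whose centred SD was at least 50% of that of the member. Counting errors cover counting error only. Promoter windows are from RefSeq (GRCr8), while the counts use the Ensembl annotation, so no other coordinate is given. Of the listed names, Kctd8, Kctd12, Kctd16, Ogdh, Col1a2 and Dlx6 were not analysed here. Besides the neuronal, β-cell and α-cell markers, the summed δ-cell markers were 0.918 to 2.85 in the control lines and 1.20 to 13.6 in the PWS lines, and the PP-cell marker Ppy 0 to 2.75 and 0. The glutamatergic neuron markers were 96.8 to 151 and 101 to 153, the acinar ones 12.9 to 35.1 and 23.5 to 32.7, the duct ones 1770 to 1914 and 1287 to 1926, the fibroblast ones 1.03 to 2.85 and 1.20 to 3.64, and the immune ones 30.4 to 34.0 and 28.6 to 33.5. Most of the duct sum was Krt7, of the acinar sum Ctrb1 and of the immune sum Cd68. Krt19 had 1 read in all, and Cftr, Prss1, Pnlip, Ptprc and Aif1 had 0.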

Additional observations from a re-analysis of the deposited data

How the results depend on the processing

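The alternatives were another pseudocount, filter, scaling, moderation, counting, tool or threshold, each line left out in turn, the subclones averaged, and a replicate block. DESeq2 at an adjusted p under 0.1, the threshold of the study's methods, was chosen after seeing the data. Limma called 40 genes, and 9 with a mean of at least 50, 16 with nonunique none counting, 12 with the RSEM table, 228 in DESeq2 and 369 in DESeq2 at 0.1. The count was 33 to 55 with a line left out, highest without PWS line 3. Genes of the pathway lists called went from 0 to 1 (Gnao1) in DESeq2, at both thresholds, and without PWS line 3 (0 to 1 with a line left out). Of the members, Gad2 (-1.96) and Gabbr2 (0.39) passed in DESeq2 at 0.1 and no member passed under any other alternative. Left-out lines moved the log2 fold changes of Gad1 between 0.13 and 0.80, Gad2 between -2.08 and -1.21, Abat between -0.38 and 0.024, Aldh5a1 between 0.21 and 0.33, Gabbr1 between 0.11 and 0.23 and Gabbr2 between 0.31 and 0.45. The Gad2 to Gad1 difference ranged from -2.82 to -1.63 and that of Gabbr2 to Gabbr1 from 0.13 to 0.29. The sign turned for Abat without control line 16, for Lrrc8b (-0.092 to 0.067 with a line left out), Slc6a6 (-0.10 to 0.051) and Ubqln1 (-0.17 to 0.031) without control line 2, and for Slc38a2 (-0.0037 to 0.11) without PWS line 19-4. Other named genes that moved by over 1.5 times included Maob (-0.090 without control line 16), Maoa (0.18 without PWS line 19-1), Gabrq (-0.095) and Lrrc8c (0.16) without PWS line 19-4, Zdhhc17 (0.076 without control line 2, 0.079 without PWS line 19-4) and Suclg1 (0.0018 without control line 2). The cause of these shifts was not tested. The correlations of deviations between control and PWS lines with the same replicate number were 0.0035, 0.047 and 0.0051. Those of lines with different numbers ran from -0.057 to 0.056. Such values cannot show whether lines with the same number were handled together. The replicate block gave 36 called genes and a limma adjusted p of 0.246 for Gad2, 0.367 for Gad1 and 0.249 for Gabbr2, and an exact p of 0.25 for each ratio, with no change of call for these results. Leaving out a line leaves 2 in its group, so an exact p cannot go below 0.2. A count of 0 in a line allows 3 reads, which limits Slc32a1 and the GABA transporters.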
